A study of Mus musculus with 6 samples.

Results

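Transcripts of 32 complement genes were followed in mouse liver: the C1q chains, the proteases and substrates of the classical, lectin and alternative pathways, C3, the terminal components, their inhibitors and the receptors of the fragments. They were taken by symbol from a table of 24532 genes, and all 32 were found. The 6 livers came from wild-type C57BL/6 mice, and every mouse ate a diet with 0.1% DDC, a porphyrin-inducing chemical that injures bile ducts and hepatocytes, for 4 weeks. During the last 2 weeks, 3 mice received recombinant human cytoglobin (rhCYGB), a haem protein, at 2 mg/kg 2 times a week, and 3 mice received the saline vehicle on the same schedule. Livers were collected 2 days after the last dose. Age and sex are not given in the labels, livers from mice on a normal diet were not analysed here, and all statements below are therefore about rhCYGB within DDC injury. Each sample is whole-liver RNA of 1 mouse, so that fewer cells of a type and less RNA per cell cannot be told apart.

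Complement is a cascade of plasma proteins and cell-surface receptors that marks surfaces for removal and can pierce membranes. C1q bound to antibody starts the classical pathway, mannose-binding lectins bound to sugars start the lectin pathway, and factor B with factor D amplifies both through the alternative pathway. All 3 pathways cleave C3, and C5 to C9 then build the membrane attack complex. Hepatocytes secrete most of the plasma components, whereas C1q and the receptors of the fragments C3a and C5a come mainly from macrophages.

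Deposited estimated counts summed to 58422095 to 72431373 per library, and 14933 to 16290 genes had a count. The rhCYGB libraries of 2 mice stood apart in composition: the TMM scaling factors, which bring libraries to a common level, were 0.744 and 0.630 in rhCYGB replicates 2 and 3 against 1.07 to 1.45 in the other 4 libraries. In those same 2 libraries the counts also leaned towards short transcripts, with a slope of -0.40 and -0.35 in log2 count per doubling of transcript length, against -0.02 to 0.44 in the others. Vehicle replicate 1 departed as far the other way, with the highest TMM factor, 1.45, and the slope of 0.44. The slope of rhCYGB replicate 1 was 0.27, so the libraries differed in composition within both groups. The edgeR quasi-likelihood test called 0 of 14415 genes (0% of those tested) at an adjusted p under 0.05. Without adjustment, 1170 genes (8.12%) had p under 0.05, and DESeq2 called 65 of the 1558 genes to which it gave an adjusted p (4.17%).

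No complement gene was called either, and 31 of the 32 passed the filter on low counts. None of the 31 had an unadjusted p under 0.05 in edgeR, and their smallest adjusted p was 0.523. DESeq2 called 0 of the 23 it gave an adjusted p. The fitted log2 fold change, rhCYGB over vehicle, was above 0 for 19 and below 0 for 12, where 46.8% of all genes tested were above 0. Their median was 0.31, beside -0.06 over all genes tested. The values below are accordingly a description of levels and of their spread.

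The level of a gene relative to another is given in FPKM, which divides by transcript length. C3, on which all pathways converge, stood highest, with a mean of 2258 FPKM over the 6 livers. Clu (clusterin, an inhibitor of the membrane attack complex) followed at 1988 FPKM and Vtn (vitronectin, another such inhibitor) at 1537 FPKM. These 3 genes held 55.1% to 63.2% of the complement FPKM in every liver. Cfb (factor B) at 518 FPKM and Serping1 (C1 inhibitor) at 390.2 FPKM came next. The spread between mice of one group was wider than most of the steps in this order: Vtn ran from 1170 to 1953 FPKM in vehicle livers and Clu from 1811 to 3036.

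**Figure D1:**
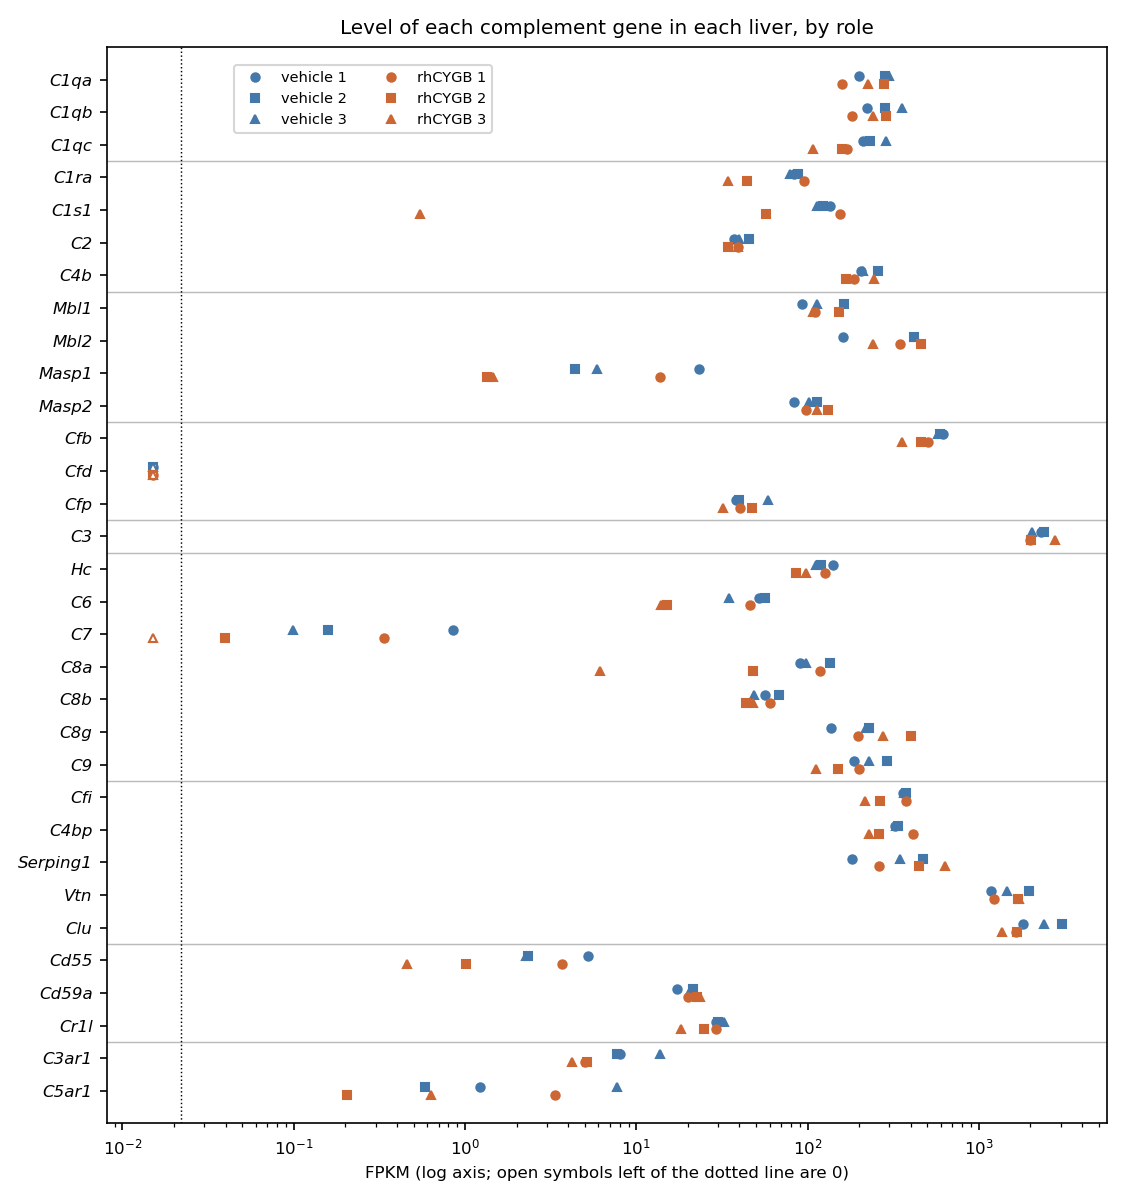
FPKM (log axis) of the 32 complement genes in each of 6 livers, grouped by role between grey lines; blue symbols are vehicle and orange symbols rhCYGB mice, and open symbols stand for 0. C3, Clu and Vtn lie at 1170 or above in all 6 livers, Cfd is at 0 in all 6, and the single far points of C1s1 and C8a belong to rhCYGB replicate 3.

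Cfd, the protease factor D, was listed at 0 counts in all 6 livers. A count of 0 allows a level of up to 0.0355 to 0.0797 CPM per library at a floor of 3 counts, for counting error only. None of 20 genes that every cell uses was at 0 in any library. Factor D is made chiefly by fat cells, and the reason for the Cfd zeros was not tested. Of 7 adipocyte genes, Adipoq, Plin1 and Lep were also at 0 in all 6 livers and Retn was at 0 in 5 of them, while Car3, which hepatocytes also express, had a mean of 51.5 FPKM, Cidec 2.32 and Plin4 1.41. At the low end of the detected genes, C7 had a mean of 0.247 FPKM, C5ar1 2.28, Cd55 2.50 and C3ar1 7.31.

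Promoter sequence was read for the genes on which the next comparisons turn: C3 as the most abundant hepatocyte product, C1qb as a macrophage product, and C8a, C8b and C9, whose proteins share one lytic complex. The sequences come from RefSeq on GRCm38.p6, run 5′ to 3′ on the strand of the gene, and cover the 150 bases before the RefSeq start (for C9, 131 bases, since the rest overlaps an annotated transcript). Capitals mark a match to the C/EBP motif, TTGCNNAAT, bound by the liver-enriched C/EBP factors.
C3, chr17:57228137-57228286, minus strand: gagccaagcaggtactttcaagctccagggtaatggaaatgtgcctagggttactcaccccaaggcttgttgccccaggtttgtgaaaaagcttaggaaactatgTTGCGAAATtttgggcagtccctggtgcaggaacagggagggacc
C9, chr15:6445196-6445326, plus strand: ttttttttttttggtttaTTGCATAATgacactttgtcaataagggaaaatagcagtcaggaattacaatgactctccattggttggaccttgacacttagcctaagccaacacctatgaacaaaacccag
C8a, chr4:104876399-104876548, minus strand: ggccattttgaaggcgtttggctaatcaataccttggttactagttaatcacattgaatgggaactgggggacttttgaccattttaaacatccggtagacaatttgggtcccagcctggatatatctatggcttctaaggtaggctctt
C8b, chr4:104766167-104766316, plus strand: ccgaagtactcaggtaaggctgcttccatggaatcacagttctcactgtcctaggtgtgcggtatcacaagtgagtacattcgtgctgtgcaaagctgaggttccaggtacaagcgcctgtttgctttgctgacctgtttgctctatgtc
C1qb, chr4:136886201-136886350, minus strand: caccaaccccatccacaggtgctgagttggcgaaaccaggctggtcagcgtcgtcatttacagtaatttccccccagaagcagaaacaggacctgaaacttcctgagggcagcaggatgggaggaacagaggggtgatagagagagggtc

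The match of C3 begins 45 bases before the start and that of C9 begins 132 bases before it. Of the 24 complement genes with a RefSeq promoter entry, these 2 held the motif, as did 1.24% of 32475 promoter windows of 150 bases searched on both strands. The TATA box letters TATAAA were in 2 of the 24 (C7 and Vtn), against 7.55% of all windows. The motifs of PU.1 (GAGGAAGT), HNF1, HNF4 (CAAAGTCCA), FoxA (TGTTTAC), NF-kB and STAT3 (TTCCNGGAA) were in 0 of the 24, and each was in at most 1.8% of all windows. These letter searches describe the windows only. C3 and C9, which share the match, had log2 fold changes of 0.67 (SE 0.49) and -0.11 (SE 0.35).

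The C1q chains are encoded side by side on chromosome 4 (mm10; C1qb at 136880145 to 136886177, C1qc at 136889802 to 136892914 and C1qa at 136895916 to 136898844) and join in equal numbers in the C1q protein. C1qa, as counts relative to the TMM-scaled library size (CPM), was 151, 291 and 277 in the vehicle livers and 147, 410.2 and 391 in the rhCYGB livers. C1qb was 165, 285 and 324 CPM against 165, 416 and 413. In both genes replicate 1 of either group was low, the other 2 rhCYGB livers were the highest, and the groups overlapped. The log2 fold changes were 0.40 (SE 0.47) for C1qa and 0.36 (SE 0.45) for C1qb, with edgeR adjusted p of 0.674 and 0.691. C1qc took another course, with 154, 232 and 261 CPM in vehicle livers and 155, 228 and 182 in rhCYGB livers. For C1qc the log2 fold change was -0.20 (SE 0.32).

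Within a library, the ratio of chains does not depend on the scaling between libraries. C1qb over C1qa, in FPKM, lay between 0.999 and 1.19 in all 6 livers. C1qc over C1qa was 1.05, 0.818 and 0.967 in the vehicle livers and 1.08, 0.570 and 0.477 in the rhCYGB livers. The 2 low ratios were those of rhCYGB replicates 2 and 3, the libraries that leaned towards short transcripts. C1qa, C1qb and C1qc are 1082, 1062 and 1054 bases long. The cause of the low ratios was not tested. The ratio of rhCYGB replicate 1 exceeded all 3 vehicle ratios, so the groups overlapped.

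**Figure D2:**
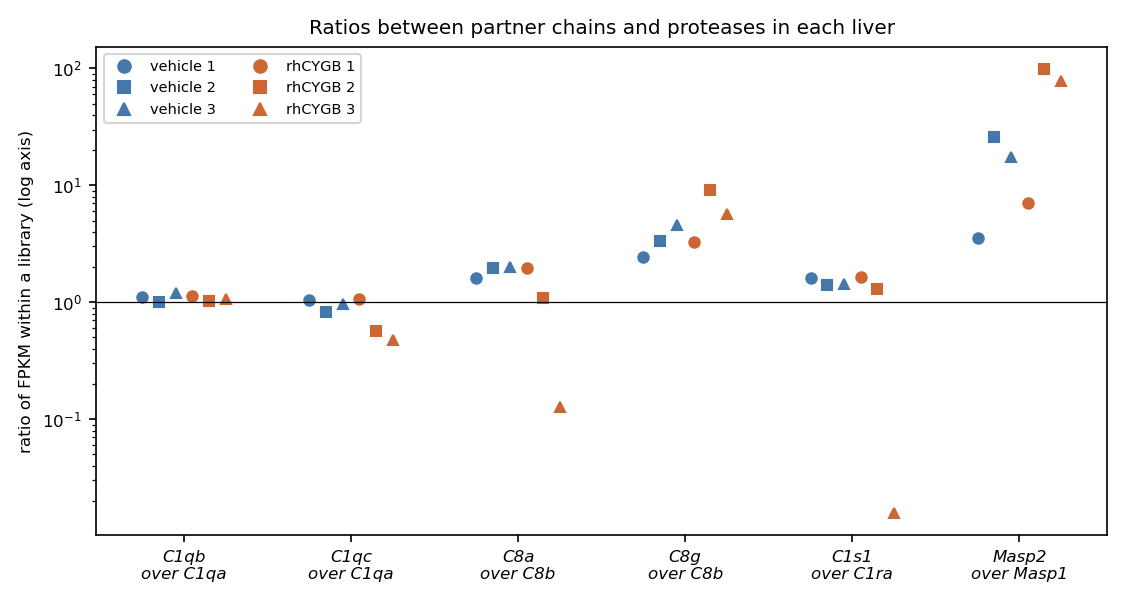
Ratio of FPKM (log axis) between 6 pairs of complement partners, 1 symbol per liver, blue for vehicle and orange for rhCYGB. C1qb over C1qa stays near 1 in every liver, whereas C8a over C8b (0.128) and C1s1 over C1ra (0.0158) are far below the rest in rhCYGB replicate 3.

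C1ra and C1s1 encode the proteases C1r and C1s that C1q carries. C1s1 was 276, 346 and 288 CPM in vehicle livers and 392, 228 and 2.58 in rhCYGB livers. The highest and the lowest of the 6 values both belonged to rhCYGB mice, and the log2 fold change of -0.55 had an SE of 1.21. Without rhCYGB replicate 3 it was 0.02. Its paralog C1s2 was at 0 FPKM in that liver and at most 0.180 FPKM in the others. The cause of the low C1s1 value was not tested. C1ra was 160.5, 231 and 187 CPM against 225, 166 and 152, without such a gap in any liver. C1ra has the near copy C1rb, which was listed at 0 to 18.0 FPKM, and reads may be split between these copies, as between C4b and C4a, Cd59a and Cd59b, or Cd55 and Cd55b. The substrates C2 and C4b had log2 fold changes of 0.47 (SE 0.33) and 0.45 (SE 0.44). C4b was 769, 1328 and 975 CPM in vehicle livers and 859, 1226 and 2107 in rhCYGB livers, with the highest value in rhCYGB replicate 3 and overlap of the rest.

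In the lectin pathway, Mbl1 and Mbl2 encode the mannose-binding lectins. Mbl2 was 119.6, 427 and 390.0 CPM in vehicle livers and 318, 669 and 414 in rhCYGB livers. Mbl1 was 60.0, 142 and 90.2 CPM against 87.9, 192 and 159.8. Vehicle replicate 1 was the lowest liver for both lectins and rhCYGB replicate 2 the highest, and the groups overlapped. Masp2, which encodes the protease that cleaves C4 and C2, was 100.3, 149.7 and 121 CPM in vehicle livers and 134, 209.9 and 273 in rhCYGB livers. Only vehicle replicate 2 reached into the rhCYGB range. The log2 fold change of Masp2 was 0.73 (SE 0.34), with an unadjusted p of 0.0688 and an edgeR adjusted p of 0.523. Masp1, the related protease, was far lower and more variable, with 44.9, 11.5 and 13.9 CPM in vehicle livers and 32.6, 5.01 and 6.45 in rhCYGB livers. Replicate 1 of each group held its highest value, and Masp2 over Masp1 in FPKM therefore ranged from 3.57 to 98.5.

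Masp2 also yields a short transcript for the small protein MAp19, which lacks the protease domain. The 744-base transcript held 57.9%, 72.4% and 72.8% of the FPKM of Masp2 in vehicle livers and 63.3%, 81.5% and 67.2% in rhCYGB livers. The log2 fold change of this transcript was 0.77 (SE 0.46), and that of the full-length transcript of 3059 bases was 0.55 (SE 0.29), both with an edgeR adjusted p of 0.802 over 19664 transcripts. In the transcript table edgeR called 0 transcripts (0%), 795 (4.04%) had an unadjusted p under 0.05, and DESeq2 called 268 of 22228 (1.21%). Of the other genes with several transcripts, Cfb had a minor form at 5.04% to 9.72% of its FPKM in vehicle livers. In rhCYGB livers this form held 9.90% to 17.5%. The highest vehicle share, 9.72%, thus lay just below the lowest rhCYGB share, 9.90%. How often such shares separate among all genes was not computed. The minor form of Cfb had a log2 fold change of 0.90 (SE 0.37), with an unadjusted edgeR p of 0.0545. The forms differ in length by few bases (2743 against 2747), so the split between them is an estimate by StringTie. The minor form of Cfi, of 2074 bases, held 19.5% to 22.8% of its gene in vehicle livers and 13.4% to 21.2% in rhCYGB livers. The main form of C8a, of 3635 bases, held 85.2% to 92.0% in vehicle livers and 92.7%, 69.2% and 55.4% in rhCYGB livers. The minor form of C1s1, of 2910 bases, held 43.0% of its gene in rhCYGB replicate 2, 0% in rhCYGB replicate 3 and 1.71% to 4.95% in the other 4 livers.

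Cfb and Cfp serve the alternative pathway. Cfb, whose product forms the C3 convertase, was 1188, 1554 and 1356 CPM in vehicle livers and 1198, 1709 and 1571 in rhCYGB livers, a log2 fold change of 0.13 (SE 0.34). Cfp, which encodes properdin, the stabiliser of that convertase, was 43.4, 61.9 and 82.9 CPM against 57.0, 106 and 84.9. Both genes overlapped between groups in CPM. C3 was 8261, 11679.5 and 9058 CPM in vehicle livers and 8776, 14109.6 and 23134 in rhCYGB livers. Its group means of 9666 ± 1788 and 15340.0 ± 7258 (SD, n = 3) were set apart mainly by rhCYGB replicate 3, and rhCYGB replicate 1 lay within the vehicle range. The log2 fold change of C3 was 0.67 (SE 0.49), with an edgeR adjusted p of 0.567.

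The terminal components did not move as a unit: 3 of 7 had a fold change above 0, and their median was -0.11. C8 is made of an alpha, a beta and a gamma chain, encoded by C8a, C8b and C8g. C8g was 100.1, 226 and 197 CPM in vehicle livers and 177, 568 and 459.8 in rhCYGB livers. Its log2 fold change of 1.20 (SE 0.52) had the smallest p of the complement genes, 0.0513, with an edgeR adjusted p of 0.523. rhCYGB replicate 1 lay inside the vehicle range and the other 2 rhCYGB livers above it. Without those 2 livers, a choice made after seeing the data, the log2 fold change was 0.0086. C8b was 87.9, 144 and 93.1 CPM against 116, 133 and 174. C8a was 224, 447 and 290.2 CPM in vehicle livers and 363, 224 and 28.9 in rhCYGB livers, the last again in rhCYGB replicate 3.

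The proportion of the C8 chains set 2 livers apart. C8a over C8b in FPKM was 1.62, 1.98 and 2.01 in vehicle livers and 1.97, 1.09 and 0.128 in rhCYGB livers. C8g over C8b was 2.45, 3.36 and 4.55 against 3.27, 9.14 and 5.68. rhCYGB replicate 1 stayed within the vehicle range of both ratios, and rhCYGB replicates 2 and 3 were outside it in both. C8a is 3635 bases long, C8b 2239 and C8g 1044, and the 2 livers are those with the shift towards short transcripts. The part of transcript length in these ratios was not tested.

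The remaining terminal genes had small or unsteady differences. C6, an early member of the lytic complex, was 103, 152 and 84.5 CPM in vehicle livers and 113, 58.5 and 63.7 in rhCYGB livers, a log2 fold change of -0.53 (SE 0.36). C9, which forms the ring of the pore, was 229, 485 and 348 CPM against 302, 361 and 317. All 3 rhCYGB values of C9 fell inside the vehicle range. Hc, which encodes C5, had a log2 fold change of 0.31 (SE 0.31). C7 was at most 1.62 CPM in any liver.

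Among the soluble regulators, C4bp (C4b-binding protein) was the one complement gene whose groups did not overlap in CPM. It was 426, 603 and 532 CPM in vehicle livers and 667, 667 and 694 in rhCYGB livers, with a log2 fold change of 0.38 (SE 0.30) and an edgeR adjusted p of 0.581. Its groups overlapped in FPKM and TPM, and its log2 fold change was -0.13 without scaling factors and -0.35 on log2(TPM + 1). That is 1 of 31 tested genes, beside 6.02% of all genes that did not overlap and were higher in rhCYGB livers. No complement gene was lower without overlap, beside 7.38% of all genes, and 13.4% of all genes had no overlap in either direction. Serping1, the inhibitor of C1r, C1s and the MASP proteases, was 229.5, 811 and 544 CPM in vehicle livers and 408, 1107 and 1863 in rhCYGB livers. Its log2 fold change of 1.09 had an SE of 0.66, and its values spread over a wide range in both groups. Vtn had a log2 fold change of 0.64 (SE 0.51), Clu -0.07 (SE 0.45) and Cfi, the protease factor I, 0.16 (SE 0.30).

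The membrane regulators protect the cell's own surface. Cd59a, which blocks the pore, was 21.3, 36.0 and 31.5 CPM in vehicle livers and 30.7, 54.1 and 66.0 in rhCYGB livers. Its log2 fold change was 0.76 (SE 0.36), with an unadjusted p of 0.0674 and an edgeR adjusted p of 0.523. Cr1l, the rodent gene of the convertase inhibitor Crry, was 33.8, 47.2 and 46.6 CPM against 41.9, 56.3 and 48.4. Cd55, which speeds the decay of convertases, was below 10 CPM in all 6 livers.

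Both receptors had fold changes below 0. C3ar1, the receptor of C3a, was 24.2, 31.5 and 50.7 CPM in vehicle livers and 18.6, 30.2 and 29.0 in rhCYGB livers, a log2 fold change of -0.45 (SE 0.35). C5ar1, the receptor of C5a, was 2.18, 1.43 and 16.8 CPM against 7.35, 0.705 and 2.60. Vehicle replicate 3 held the highest value of both. Without that liver the log2 fold change of C5ar1 was 0.98 in place of -0.93, and that of C3ar1 was -0.11.

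**Figure D3:**
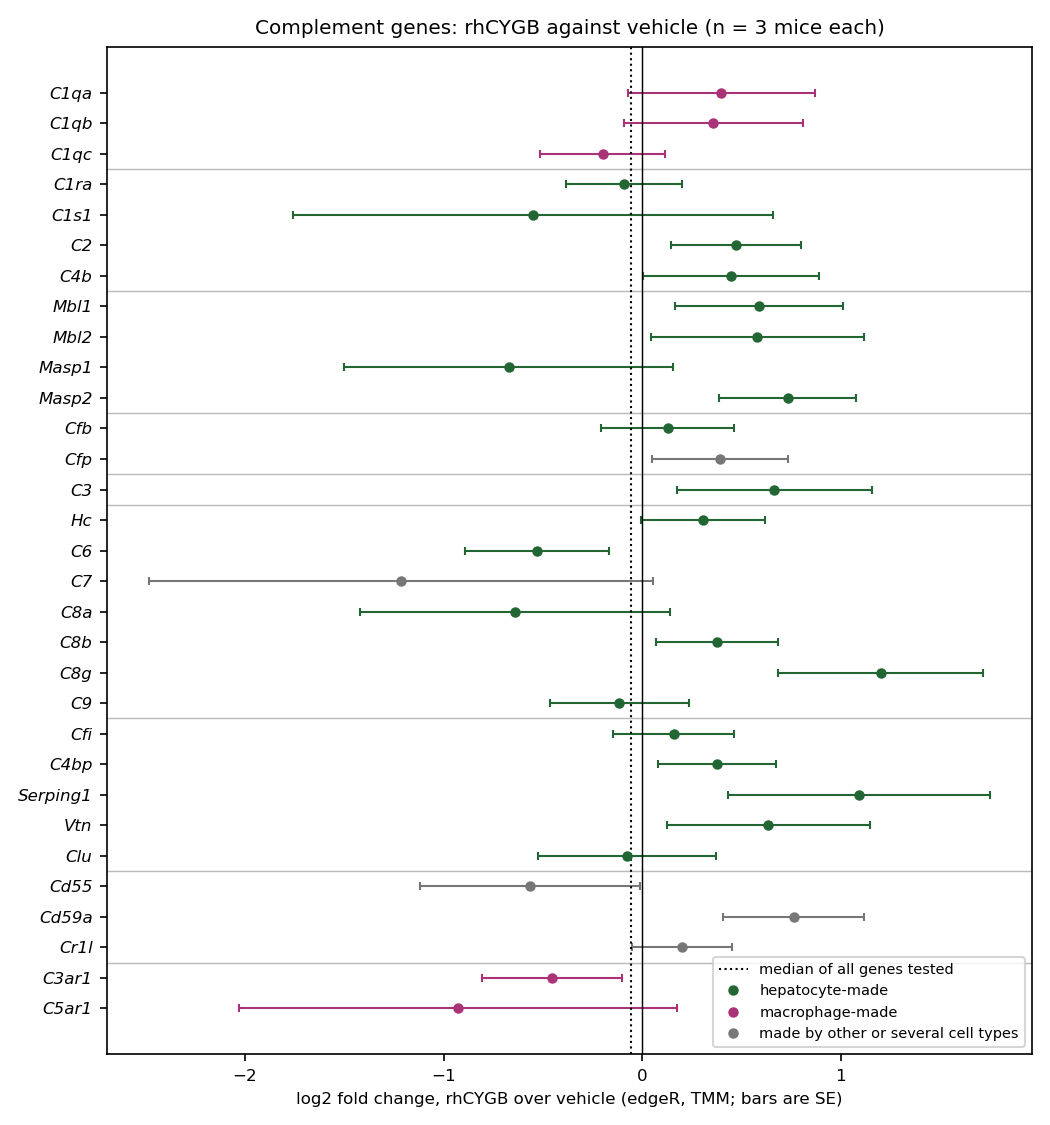
Fitted log2 fold change of the 31 tested complement genes, rhCYGB over vehicle (edgeR with TMM factors, n = 3 mice each), with SE bars, coloured by the cell type that mainly makes the product; the dotted line is the median of all genes tested, -0.06. C8g has the highest value, 1.20, and C7 the lowest, -1.21; no gene was called.

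Products of hepatocytes were then set against those of macrophages. Of 21 hepatocyte-made genes, 14 had a log2 fold change above 0 and the median was 0.38. Of the 5 macrophage-made genes (the C1q chains and both receptors), 2 were above 0 and the median was -0.20. For each liver, the deviations of log2 CPM from the 6-liver mean were averaged over each set. The hepatocyte-made mean minus the macrophage-made mean was 0.11, 0.40 and -0.87 in vehicle livers and 0.25, 0.35 and -0.24 in rhCYGB livers. The groups overlapped, and the difference between their means, 0.24, was smaller than the pooled SD of 0.52. The low vehicle value came from vehicle replicate 3, where the macrophage-made mean was 0.80. In that liver C5ar1 deviated by 2.48 and C3ar1 by 0.79. The C1q chains deviated by 0.11 (C1qa), 0.24 (C1qb) and 0.40 (C1qc), so the mean rested largely on C5ar1, a gene of low counts. Without vehicle replicate 3 the difference was -0.14, so its direction rests on 1 liver. Leaving out C1s1 and C8a, chosen after their values were seen, gave 0.44. The difference without C5ar1 is not given here.

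**Figure D4:**
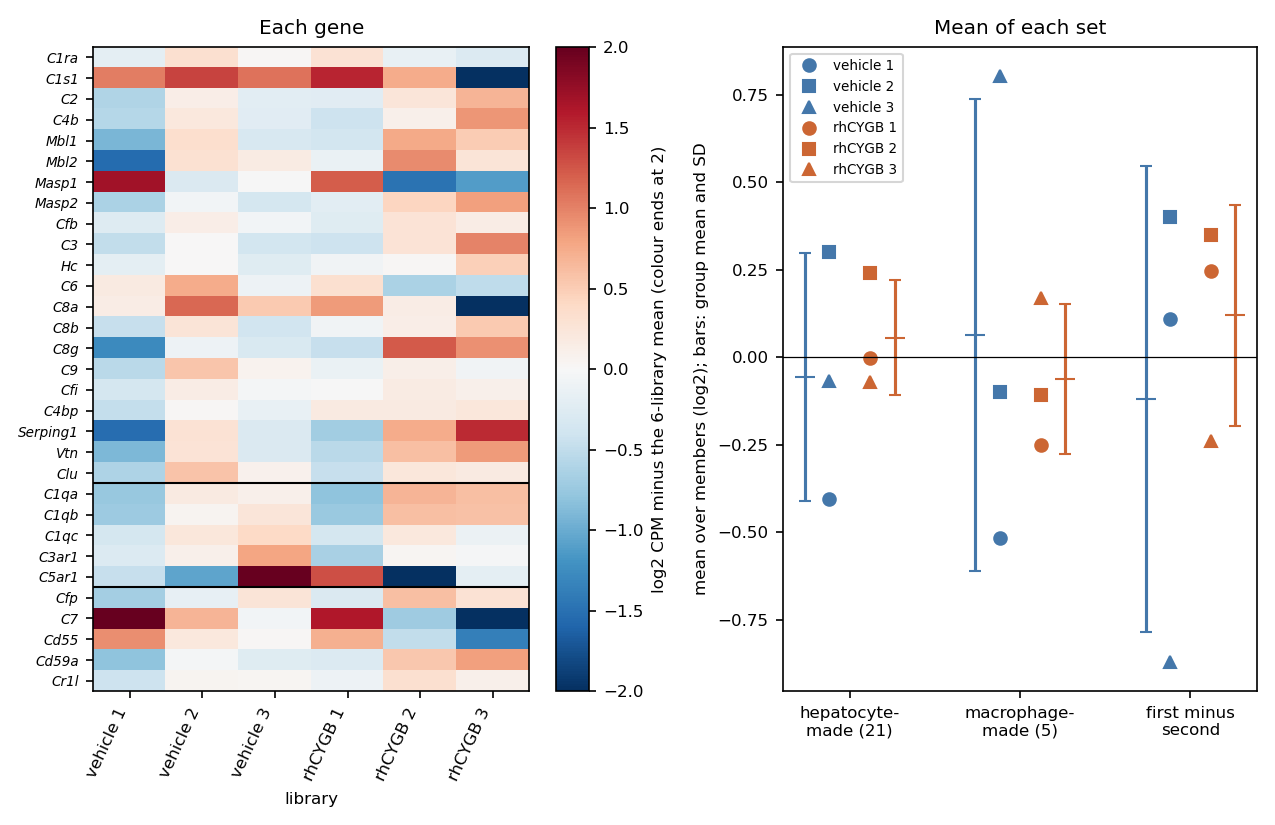
Left, log2 CPM of each tested complement gene in each liver minus its 6-liver mean, with hepatocyte-made genes on top, macrophage-made genes in the middle and the rest at the bottom; colours end at 2. Right, the mean of each set in each liver and their difference, with group mean and SD (n = 3); the vehicle and rhCYGB points overlap in all 3 columns.

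Marker genes of cell types were measured in the same livers. Of 10 hepatocyte genes led by Alb and Trf, 9 had a log2 fold change above 0 and the median was 0.66. The list summed to 90585 to 155611 CPM in vehicle livers and 129287 to 261008 CPM in rhCYGB livers. Of 20 genes that every cell uses, 16 were above 0 as well, with a median of 0.61. The highest of these were ribosomal protein genes such as Rpl13a at 1.78 and Rpl32 at 1.54, while Actb was at -0.53 and Tuba1b at -1.07. Kupffer cell genes such as Cd5l and Marco divided into 4 above and 4 below 0, with sums of 699 to 861 CPM against 609.6 to 944. Singly, 2 of the 8 Kupffer cell genes were higher without overlap in CPM and 0 lower. Of 8 genes of monocyte-derived macrophages, 7 were below 0 with a median of -0.82 and sums of 959 to 2176 CPM against 859 to 1506. Singly, 4 of these 8 were lower without overlap in CPM and 0 higher. In FPKM the sums of this list, 1091 to 1884 against 452 to 933, did not overlap. On that scale 2138 of 14415 genes were lower without overlap and 240 higher. All 7 stellate cell and fibroblast genes were below 0, with sums of 761 to 974 CPM against 176 to 624, which do not overlap. Singly, 4 of the 7 were lower without overlap, beside 7.38% of all genes. The median transcript length of these stellate cell and fibroblast genes was 5410 bases, against 2761 over all genes tested. The part of transcript length in their values was not tested. How often such list sums separate was not computed. In CPM the sums of every other marker list, also those of neutrophils, fat, bile duct, endothelial, mesothelial and erythroid cells, overlapped between groups. The part of cell composition in the complement values was not tested.

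Further genes linked to the system, not all of them complement components, showed the same lack of calls. Of 26 tested, 12 had fold changes above 0 and 14 below, with a median of -0.00 and 0 calls by edgeR. Unadjusted p was under 0.05 for 2 above 0 (Fcna and C1qbp) and 3 below 0 (Itgax, Itgb2 and Itgam), beside 873 above and 297 below among all 14415 genes. Itgam is also in the list of monocyte-derived macrophage genes above. Groups did not overlap in CPM for 3 of the 26 higher and 4 lower, beside 6.02% and 7.38% of all genes. Itgax, Itgb2 and Fcna had the lowest p of these genes. Itgax, of complement receptor 4, was 18.0, 21.5 and 29.7 CPM in vehicle livers and 6.82, 13.9 and 10.7 in rhCYGB livers, without overlap. Its log2 fold change was -1.14 (SE 0.35), with an unadjusted p of 0.0124 and an edgeR adjusted p of 0.523. Itgb2, the chain that both integrin receptors share, was 42.3, 38.5 and 59.4 CPM against 30.4, 22.1 and 10.8, again without overlap. Fcna, a ficolin that starts the lectin pathway, was 48.5, 65.4 and 83.0 CPM against 101, 172 and 95.6, and the rhCYGB livers were all higher. Fcna had a log2 fold change of 0.90 (SE 0.34), with an edgeR adjusted p of 0.523. Calr, Cpb2 and Apcs were the most abundant of these genes, at 498, 356 and 217 FPKM.

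The direction of the complement genes as a group depended on the scale. On TMM-scaled counts 19 of 31 had a fold change above 0, but on unscaled counts 8 did, and on log2(TPM + 1), which relates each gene to the sum of all length-corrected levels, 3 did. The median of all genes moved with it, from -0.06 to -0.56 and -0.51, and that of the complement genes from 0.31 to -0.27 and -0.44. Hepatocyte-made genes above 0 numbered 14, 7 and 3 of 21 on these scales, and macrophage-made genes 2, 0 and 0 of 5. The complement median thus lay above the all-gene median on each of these scales. Complement transcripts made up 1.76%, 2.05% and 1.79% of TPM in vehicle livers and 1.64%, 1.38% and 1.37% in rhCYGB livers, without overlap. As a share of counts they were 2.58%, 3.16% and 2.69% against 2.41%, 2.43% and 2.72%, and there the groups overlapped. How often such summed shares separate was not computed. In TPM 6 complement genes did not overlap between groups, all lower in rhCYGB livers: C1qb, C1qc, C4b, Cfb, Clu and C3ar1. That is 6 of 31, beside 12.7% of all genes lower without overlap in TPM and 1.33% higher. Clu, for example, was 3554, 5112 and 4110.0 TPM in vehicle livers and 3055, 2444 and 2020 in rhCYGB livers. C1qc, Masp2, C6, C8g and C3ar1 kept the sign of their fold change in all 17 settings tried, Masp2 and C8g above 0 and the other 3 below, but not its size. Masp2 was at 0.02 on log2(TPM + 1), and without rhCYGB replicates 2 and 3 together C8g was at 0.0086 and C6 at -0.0086.

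Transcript length went with the fold change in a weak way. Across the 31 genes Pearson's r was -0.33 and Spearman's rho was -0.33, and across the 21 hepatocyte-made genes they were -0.33 and -0.32. These are descriptions across genes that share the same 6 libraries. Masp2 enters with 3059 bases, although its 744-base form held most of its FPKM. After a length trend was removed in each library, 16 of 31 complement genes had fold changes above 0, the median was 0.04, and C1qa and C1qb were at -0.12 and -0.17. C8g went from 1.20 to 0.66 and C1qc from -0.20 to -0.63, while C3 rose from 0.67 to 1.09. C8a and C8b were at -0.56 and 0.35, beside -0.64 and 0.38 before.

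**Figure D5:**
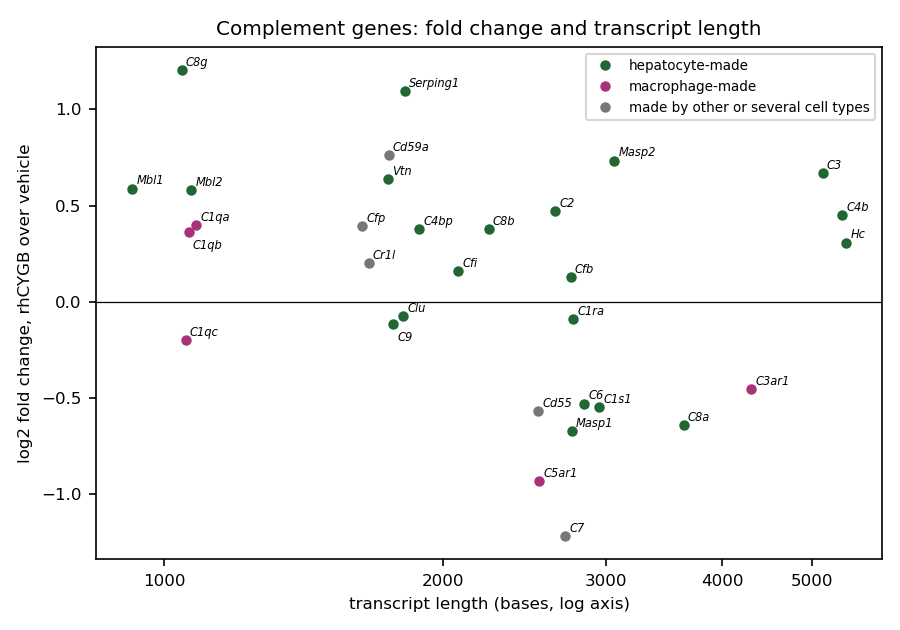
Log2 fold change, rhCYGB over vehicle, against the deposited transcript length in bases (log axis) for the 31 tested complement genes, coloured by main source. C8g, at 1044 bases, has the highest fold change, while C3, C4b and Hc, the longest, are also above 0.

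The spread between mice within a group was uneven. Vehicle replicate 1 held the lowest CPM of 19 of the 31 genes, and rhCYGB replicates 2 and 3 held the highest CPM of 9 and 10. In 2 alternative analyses some genes passed the threshold: limma-voom with sample quality weights called 3 of 31, all higher, where it called 30.6% of all genes (16.4% higher and 14.2% lower). These were C8g (log2 fold change 1.39, adjusted p = 0.0132), Cd59a (0.75, adjusted p = 0.0227) and Masp2 (0.74, adjusted p = 0.0263). edgeR without rhCYGB replicate 1 called the same genes, with adjusted p of 0.0301, 0.0355 and 0.0441, where it called 23.2% of all genes (12.7% higher and 10.5% lower). The share of complement genes called was below that of all genes in both.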

How the data were processed

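Liver RNA of 6 mice was sequenced from a stranded mRNA library kit with paired ends, per the labels' protocols. FastQC 0.11.7, HISAT2 2.1.0, StringTie 1.3.4d and mm10 are named in the submitters' processing notes; no source used here gives the annotation release or the strand setting. The deposited tables hold estimated counts, already whole, and FPKM as the authors computed them, per gene and per transcript. A transcript's count equals its FPKM times its length times 1 constant per library, and the gene counts of the members are sums over their transcripts. Replicates are separate mice by label and are numbered in accession order; p-values measure the spread between these mice.

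Counts were tested with edgeR 4.0.16 (R 4.3.3; TMM, filterByExpr, robust quasi-likelihood F test) and Benjamini-Hochberg adjustment over all genes kept, at 0.05; the code was tested on simulated data. SE is the absolute log2 fold change divided by the square root of F. CPM uses TMM library sizes. TPM rescales FPKM to its library sum. Alternatives were other scalings and filters, log2(TPM + 1) and log2(TPM + 0.1) in limma 3.58.1, DESeq2 1.42.0, quality weights, removal of a loess length trend (span 0.5) and leaving out each mouse. FPKM and TPM keep no filter of their own.

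The genes named were the 2 highest in FPKM of each role and the 6 smallest p-values; of the further complement genes, the 3 highest in FPKM and the 3 smallest p-values; of transcripts, the 4 genes with the most abundant minor form. The members, roles, sources and lists were chosen with earlier results of these data known. C1qc, C1ra, Masp1, C8a with its transcripts, C8b, C4bp, Hc, Cfi, Cd55 and C7, the ratios, the motifs, the 150-base window and the printed promoters were picked after values were seen. Motif counts cover all 24 members with a promoter entry, of which 20 start where the deposited transcript table does.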

Additional observations from a re-analysis of the deposited data

How the results depend on the processing

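Only 3 mice per group and uneven library composition limit every comparison. The counts of called genes changed most: 0 in edgeR became 65 with DESeq2, 4410 with limma-voom quality weights, and 0 to 3391 when 1 mouse was left out, the highest without rhCYGB replicate 1. Complement genes called went from 0 to 3 with quality weights and 0 to 3 with 1 mouse left out. Called transcripts went from 0 to 268 with DESeq2 and 0 to 958 with 1 mouse left out. The hepatocyte-minus-macrophage difference of 0.24 was -0.14 to 0.50 with 1 mouse left out. The cause was not tested. No paired analysis was possible because the labels give each mouse its own number and no number shared between groups.

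Signs turned in these cases, with no call involved. On log2(TPM + 1) the log2 fold changes were C1qa -0.42, C1qb -0.44, C2 -0.28, C3 -0.17, C4b -0.36, Cd59a -0.016, Cfb -0.62, Cfp -0.34, Cr1l -0.52, Mbl1 -0.14, Mbl2 -0.027, Vtn -0.14, Hc -0.45, C8b -0.34, Cfi -0.57 and C4bp -0.35. On log2(TPM + 0.1) they were C1qa -0.42, C1qb -0.44, C2 -0.29, C3 -0.17, C4b -0.36, Cd59a -0.017, Cfb -0.62, Cfp -0.34, Cr1l -0.53, Mbl1 -0.14, Mbl2 -0.027, Vtn -0.14, Hc -0.45, C8b -0.35, Cfi -0.57 and C4bp -0.35. Without scaling factors they were C1qa -0.24, C1qb -0.27, C2 -0.12, C4b -0.18, Cfb -0.44, Cfp -0.19, Cr1l -0.34, Hc -0.27, C8b -0.18, Cfi -0.36 and C4bp -0.13, and with upper-quartile factors Cfb was -0.0069. With the length trend removed, C1qa was -0.12, C1qb -0.17 and Cr1l -0.0024. Without rhCYGB replicates 2 and 3 together, chosen after seeing the data, they were C1qa -0.71, C1qb -0.65, C1s1 0.36, C2 -0.038, C3 -0.15, C4b -0.26, C5ar1 0.099, Cfb -0.20, Cfp -0.15, Cr1l -0.030, Mbl1 -0.16, Serping1 -0.38, Vtn -0.32, C1ra 0.22, Masp1 0.47, C7 0.054, C8a 0.17 and Cd55 0.27. With 1 mouse left out, C1s1 ran from -1.40 to 0.023, C9 from -0.35 to 0.18, Clu from -0.33 to 0.25, C5ar1 from -2.05 to 0.98, C1ra from -0.28 to 0.061 and Masp1 from -2.04 to 0.21.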
